A study of Homo sapiens with 6 samples.

Results

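Expression of the BCL2 family survival and death genes was examined in F36P, an established line of human erythroid leukaemia cells, with and without an introduced ERG gene. The set holds 7 genes, named by symbol and chosen with earlier results of these data known: BCL2L1, MCL1, BCL2L2, BAK1, BCL2L11, BID and BAD. All 7 had a row among the 14821 genes of the deposited count table, and all 7 were among the 14203 genes tested. Cells of the ERG group (3 libraries) had been transduced with the retroviral plasmid MSCV-PIG-AM-ERG, and cells of the vector group (3 libraries, genotype given as WT) with MSCV-PIG. Puromycin at 1 µg/ml was applied to both groups for 4 days to select transduced cells. The labels call the replicates biological but do not say whether they were separate transductions, pools or clones, so p-values measure only the spread between these samples. The stated purpose of the series was to learn how ERG inhibits erythroid differentiation.

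Proteins of the BCL2 family decide at the outer mitochondrial membrane whether a cell undergoes apoptosis. The death effectors BAK1 and BAX form pores through which cytochrome c leaves the mitochondrion, the survival members hold them in check, and the BH3-only members bind and block survival members or activate the effectors. In red cell precursors BCL2L1 (BCL-XL) is the survival member best known to be needed, and erythropoietin signalling through its receptor, JAK2 and STAT5 is known to raise it. MCL1 is a short-lived survival protein on which many blood progenitors depend.

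The feature that all 7 share is the BH3 motif, a short helix through which one family member grips another. Its coding sequence is shown because it is what makes the 7 genes one family. In each case 39 bases are given 5′ to 3′ on the coding strand, from the transcripts of GENCODE release 29 (hg38). Capitals mark the codon of the conserved leucine, which is a methionine codon in BCL2L2, and that of the conserved aspartate. Each coding sequence was translated and searched for leucine or methionine, any 2 residues, then alanine, valine, isoleucine or methionine, then glycine, alanine or serine, then aspartate, and each held 1 match.
BCL2L1: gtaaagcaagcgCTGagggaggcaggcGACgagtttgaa
MCL1: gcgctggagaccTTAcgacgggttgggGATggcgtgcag
BCL2L2: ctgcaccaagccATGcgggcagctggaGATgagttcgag
BAK1: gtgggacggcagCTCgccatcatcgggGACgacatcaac
BCL2L11: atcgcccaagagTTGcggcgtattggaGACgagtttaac
BID: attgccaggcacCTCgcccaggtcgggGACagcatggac
BAD: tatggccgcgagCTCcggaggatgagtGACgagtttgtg
The stretches lie at chr20:31721925-31721963 (minus strand) for BCL2L1, chr1:150578868-150578906 (minus) for MCL1, chr14:23307891-23307929 (plus) for BCL2L2 and chr6:33575390-33575428 (minus) for BAK1. Those of the BH3-only genes lie at chr2:111150091-111150129 (plus) for BCL2L11, chr22:17739418-17739456 (minus) for BID and chr11:64271625-64271663 (minus) for BAD.

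The libraries held 10257141 to 14803031 counts. ERG itself was at 97.4, 103 and 104 CPM (counts scaled to a common library size after TMM normalisation) in ERG replicates 1, 2 and 3, against 28.1, 14.6 and 22.4 CPM in the vector replicates (log2 fold change 2.23, SE 0.23, edgeR adjusted p = 0.011). The libraries also divided across the groups: over all tested genes ERG replicates 1 and 2 and vector replicate 1 (set A) resembled each other, as did ERG replicate 3 and vector replicates 2 and 3 (set B), a division taken from earlier results of these data. ERG replicates 1 and 2 were much closer to each other (2.20 per degree of freedom in a chi-square comparison of counts) than any other pair (21.6 to 86.9). Erythroid markers were abundant in vector libraries, HBG2 at 8185 CPM, and edgeR called 4 of 10 tested as lower with ERG (EPOR, HBG2, HBG1 and KLF1). Of 8 megakaryocyte markers tested it called 6 as higher (among them ITGB3, GP1BA, PPBP, SELP and PLEK), and 4 of 7 mast cell markers (KIT, CPA3, MS4A2 and HPGDS). DESeq2 called 9 of the 10 erythroid markers as lower, and 6 of the 8 megakaryocyte and 6 of the 7 mast cell markers as higher. Of 3 lymphoid markers and 1 stromal marker tested, edgeR, DESeq2 and limma called 0. In edgeR 1 of each had an unadjusted p under 0.05. The lymphoid marker CD79A (log2 fold change 1.02) was called as higher with a term for the library sets, also with ERG replicates 1 and 2 summed. A block for replicate number called it too. An edgeR adjusted p under 0.05 was reached by 2.2% of tested genes, by 1.47% as higher and by 0.732% as lower with ERG. The calls depend on which libraries are kept: the 313 genes called became 0 without either ERG replicate 1 or 2, 19 without vector replicate 2 and 51 without vector replicate 3, and 441 without ERG replicate 3 or vector replicate 1.

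With ERG, none of the 7 BCL2 family genes passed the test, in either direction. EdgeR called 0 of 7 against 2.2% of all genes, and 0 of 7 had an unadjusted p under 0.05, against 15.9% of all genes. DESeq2 also called 0, against 7.09% of all genes, and BCL2L11 alone had an unadjusted p under 0.05 there (0.0497). Limma called 0, against 2.3%, with 0 at an unadjusted p under 0.05. With a term for the library sets edgeR again called 0, against 13.2% of all genes, and 0 against 7.05% when ERG replicates 1 and 2 were also summed into 1 library. Their log2 fold changes ran between -0.35 and 0.19 with a median of -0.14, beside a median of -0.01 and a 5th to 95th percentile range of -0.64 to 1.00 over all tested genes. The 3 survival genes had positive values (0.10 to 0.19), and the effector and the 3 BH3-only genes had negative ones (-0.35 to -0.14). That split by role held its signs with RLE size factors and with no scaling beyond the column total. It did not hold with a term for the library sets, where BCL2L2 was at -0.01. Nor did it extend to all other BH3-only genes tested: BBC3, PMAIP1 and BMF were at 0.53, 0.54 and 0.63, and BIK at -0.73. The 95% intervals of BBC3, PMAIP1 and BMF were wide (-1.15 to 2.21, -0.67 to 1.76 and -1.04 to 2.30). Within sets A and B the difference of log2 CPM was -0.06 and -0.18 for BBC3, the sign of its role. It was 0.05 and 0.18 for PMAIP1, and -0.43 and 1.59 for BMF. The survival gene BCL2 (0.56) and the effector BAX (-0.16), also outside the 7, had the signs of their roles. In 2 of the 7 genes, 28.6%, the 3 ERG libraries lay all on one side of the 3 vector libraries, against 21.9% of all tested genes. Bulk RNA cannot tell a change in every cell from a change in the make-up of the culture.

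**Figure D1:**
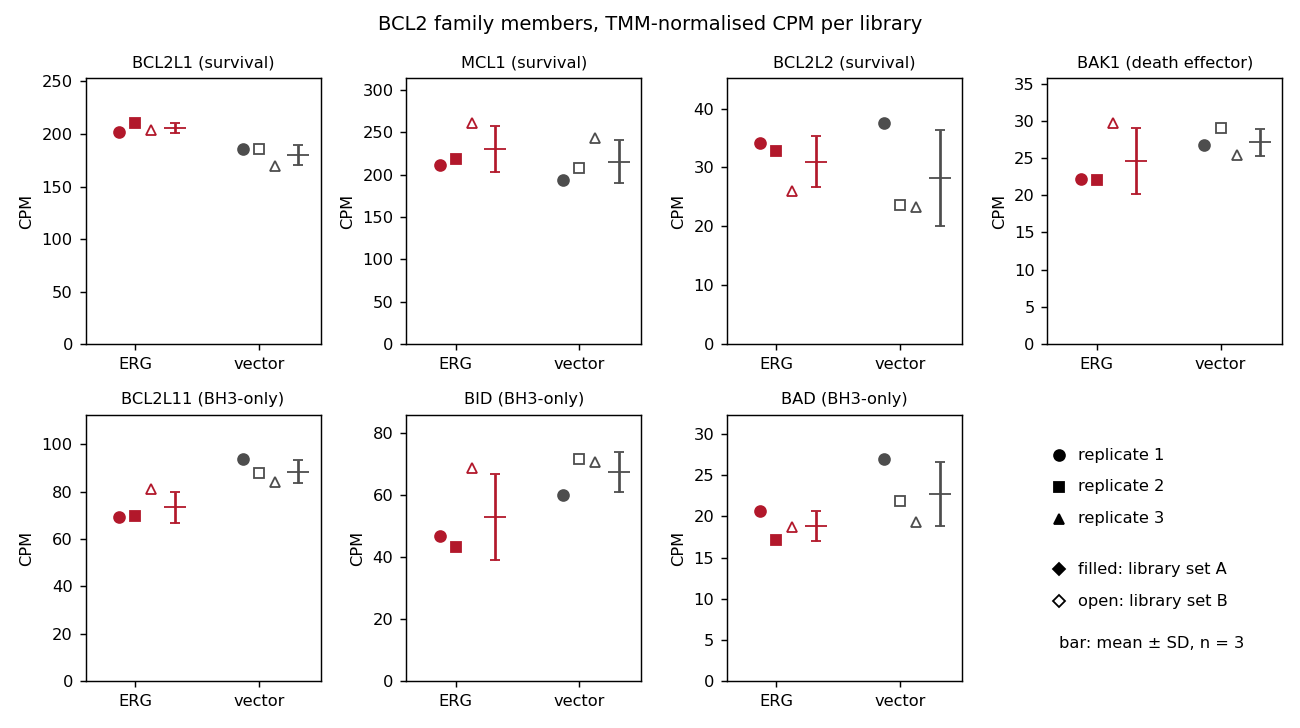
Normalised level (CPM, vertical axis from 0) of each of the 7 genes in the 3 ERG and the 3 vector libraries, with filled symbols for library set A, open symbols for set B and bars for mean ± SD (n = 3). ERG and vector libraries are separate for BCL2L1 (202 to 211 against 169 to 185 CPM) and BCL2L11 (69.4 to 81.0 against 83.9 to 93.6 CPM) and overlap for the other 5 genes.

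Among the survival genes BCL2L1 (chromosome 20, 31664452 to 31723989, minus strand) was the steadiest. It stood at 202, 211 and 204 CPM in ERG replicates 1, 2 and 3, against 185, 185 and 169 CPM in vector replicates 1, 2 and 3. All ERG libraries were above all vector libraries, by a small margin. The means were 206 ± 4.45 and 180 ± 9.24 CPM (SD, n = 3 each), a log2 fold change of 0.19 (SE 0.12, 95% interval -0.09 to 0.47, edgeR adjusted p = 0.48). On the linear scale that interval runs from 0.942-fold to 1.39-fold. Within set A the difference of log2 CPM was 0.16, and within set B 0.20. Between its lowest and highest library BCL2L1 varied 1.24-fold, where the median of all tested genes was 1.77-fold. An antisense gene, ABALON, covers 43% of its exonic bases on the other strand and averaged 11.5 CPM with ERG and 8.40 CPM with vector. The sources used here do not say whether counting used the strand, so reads in the overlap cannot be told apart.

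MCL1 (chromosome 1, 150574551 to 150579738, minus strand) was at 211, 218 and 261 CPM in the ERG replicates, against 194, 208 and 243 CPM in the vector replicates. The groups overlapped, and the highest library of each was replicate 3. Its means of 230 ± 26.9 and 215 ± 25.3 CPM gave a log2 fold change of 0.10 (95% interval -0.26 to 0.46, edgeR adjusted p = 0.779). Without ERG replicate 1 or 3 it was 0.16 and 0.00, and without vector replicate 1 or 3 it was 0.03 and 0.20. BCL2L2 (BCL-w, a survival protein of the same structure as BCL2L1; chromosome 14, 23298790 to 23311759, plus strand) was at 34.1, 32.8 and 26.1 CPM with ERG, against 37.6, 23.6 and 23.3 CPM with vector. Its 3 libraries of set A were all above its 3 libraries of set B, so that vector replicate 1 was the highest of all. The log2 fold change of 0.14 (95% interval -0.39 to 0.67, edgeR adjusted p = 0.795) was 0.40 without vector replicate 1 and 0.03 and 0.02 without vector replicates 2 and 3. Leaving out ERG replicates 1, 2 or 3 gave 0.06, 0.10 and 0.25. Within the sets the difference of log2 CPM was -0.17 in set A and 0.15 in set B. BCL2L2 shares 19.4% of its exonic bases with the readthrough gene BCL2L2-PABPN1 and 4.92% with PPP1R3E on the other strand, so part of its counts is uncertain.

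The pore former BAK1 (chromosome 6, 33572547 to 33580293, minus strand) was at 22.1, 22.0 and 29.7 CPM in the ERG replicates, against 26.8, 29.1 and 25.4 CPM in the vector replicates. ERG replicates 1 and 2 were below every vector library and ERG replicate 3 above every one. Means of 24.6 ± 4.43 and 27.1 ± 1.85 CPM gave a log2 fold change of -0.14 (95% interval -0.54 to 0.26, edgeR adjusted p = 0.728). It was -0.07, -0.06 and -0.29 without ERG replicates 1, 2 and 3 in turn, and -0.08 without vector replicate 2. The differences of log2 CPM had opposite signs within the sets, -0.28 in set A and 0.13 in set B.

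BCL2L11 encodes BIM, a BH3-only protein that binds all survival members and is held down by cytokine signalling in blood cells (chromosome 2, 111119378 to 111168447, plus strand). It was at 69.4, 69.7 and 81.0 CPM with ERG, against 93.6, 87.8 and 83.9 CPM with vector. All ERG libraries were below all vector libraries, ERG replicate 3 only just so. The means of 73.4 ± 6.61 and 88.4 ± 4.84 CPM gave a log2 fold change of -0.27 (SE 0.13, 95% interval -0.56 to 0.02), and an edgeR adjusted p of 0.355. In log2 CPM it differed by -0.43 within set A, against -0.08 within set B. On the other strand MIR4435-2HG, at 130 CPM with ERG and 134 CPM with vector, covers 10.9% of its exonic bases.

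BID (chromosome 22, 17734138 to 17774770, minus strand), which caspase-8 cleaves to carry the death receptor signal to the mitochondrion, was at 46.9, 43.1 and 68.6 CPM with ERG, against 59.9, 71.5 and 70.6 CPM with vector. ERG replicates 1 and 2 were the lowest, and ERG replicate 3 lay within the vector range. BID had the largest size of difference among the 7 genes in the fit to all libraries without a set term. BAD exceeded it with the set term (-0.33 against -0.23), with ERG replicates 1 and 2 summed, and with both of these. It also did so without ERG replicate 1 and without vector replicate 3. BCL2L11 exceeded BID with the set term (-0.26), with that term and the summing together, and without ERG replicate 2 (-0.23). With all libraries the log2 fold change of BID was -0.35 (SE 0.20, 95% interval -0.81 to 0.11, edgeR adjusted p = 0.443). Without ERG replicate 3 it was -0.58 (edgeR adjusted p = 0.0817), and without ERG replicate 2 it was -0.22 (0.916). BID levels were 1.41-fold higher in set B (70.3 CPM) than in set A (50.0 CPM), which is larger than the difference between ERG and vector. Within the sets the ERG difference was -0.41 in set A and -0.05 in set B, on the scale of log2 CPM.

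BAD (chromosome 11, 64269830 to 64284704, minus strand) is a BH3-only protein that survival kinases phosphorylate and thereby silence. It was at 20.7, 17.1 and 18.7 CPM in the ERG replicates, against 26.9, 21.9 and 19.3 CPM in the vector replicates. Vector replicate 3 lay below ERG replicate 1, so the groups overlapped. Means of 18.9 ± 1.80 and 22.7 ± 3.89 CPM gave a log2 fold change of -0.27 (95% interval -0.69 to 0.15, edgeR adjusted p = 0.513), which was -0.13 without vector replicate 1. GPR137 on the other strand covers 23.7% of the exonic bases of BAD and averaged 21.2 CPM with ERG and 20.4 CPM with vector.

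**Figure D2:**
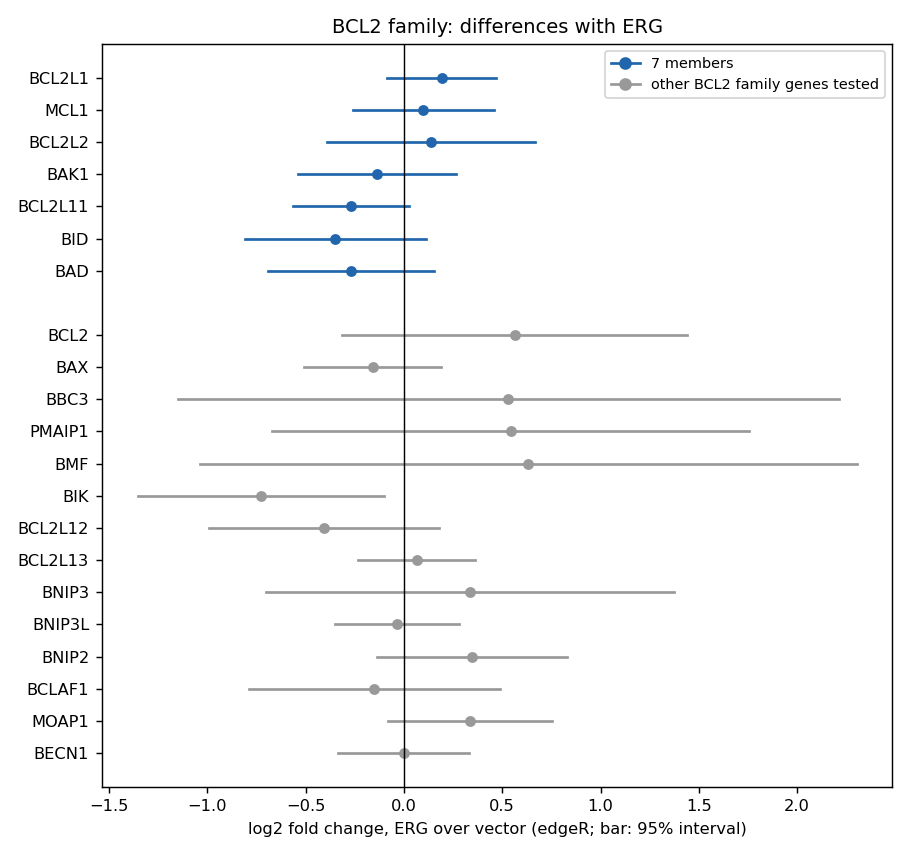
Log2 fold change of ERG over vector (horizontal axis, edgeR) with its 95% interval for the 7 genes (blue) and for the 14 other BCL2 family genes tested (grey). All 7 blue intervals include 0, and the widest grey ones belong to BBC3, PMAIP1 and BMF.

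Levels of different genes were compared per kilobase of exon, with the union of all annotated exons as length. On that scale BCL2L1 and MCL1 were the main transcripts of the 7, at 62.1 ± 1.34 and 52.7 ± 6.15 CPM per kilobase in ERG libraries and 54.3 ± 2.79 and 49.2 ± 5.78 CPM per kilobase in vector libraries. In ERG libraries every BCL2L1 value (61.1 to 63.6) was above every MCL1 value (48.4 to 59.7). In vector libraries their ranges overlapped. There BCL2L1 was above MCL1 in replicates 1 and 2 (55.9 against 44.3 and 56.0 against 47.7) and below it in replicate 3 (51.1 against 55.6). In CPM without lengths MCL1 was above BCL2L1 in every library. These ranges do not show a shift between the 2 genes with ERG, since their log2 ratio within libraries differed by only 0.09 and overlapped. The other 5 genes were several times lower and close together. In ERG libraries they averaged 11.9 for BID, 11.1 for BAK1, 11.0 for BAD, 11.0 for BCL2L11 and 7.40 for BCL2L2, in CPM per kilobase. In vector libraries the averages were 15.2 for BID, 13.3 for BAD, 13.3 for BCL2L11, 12.3 for BAK1 and 6.72 for BCL2L2. In ERG libraries BID, BAK1, BAD and BCL2L11 differed from one another by less than 1 SD of BID (3.10). In vector libraries BCL2L11 and BAK1 lay 1 step apart and differed by more than their SDs (0.727 and 0.836), while BAD and BCL2L11 differed by less than theirs. BCL2L2 was the lowest in both groups. The order depends on the lengths taken, since the isoforms in use are not known from counts per gene.

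Ratios within a library do not depend on scaling between libraries, and 2 were computed. For BCL2L1 to BCL2L11, a survival protein and a BH3-only protein that it binds, the log2 ratio of counts was 1.54, 1.60 and 1.33 in ERG replicates 1, 2 and 3, against 0.99, 1.08 and 1.01 in vector replicates 1, 2 and 3. The ratio was higher in every ERG library than in every vector library. This had to follow from the 2 genes taken singly. All ERG libraries were above all vector libraries for BCL2L1 and below them for BCL2L11. The means of 1.49 ± 0.14 and 1.03 ± 0.05 (SD, n = 3 each) differed by 0.47 on the log2 scale, or 1.38-fold. A two-sided exact permutation test gave p = 0.1, the smallest that 3 against 3 libraries allow, and 0.2 after Benjamini-Hochberg adjustment over the 2 ratios. With the groups separate in both genes that p was fixed beforehand, and it adds no support beyond the levels of the 2 genes. Set A alone gave a difference of 0.58 and set B alone one of 0.29. For BCL2L1 to MCL1 the log2 ratio was -0.06, -0.05 and -0.36 in the ERG replicates, against -0.06, -0.17 and -0.52 in the vector replicates. The groups overlapped, replicate 3 of each being the lowest, and the difference of 0.09 gave an exact permutation p of 0.5 (adjusted 0.5). Without vector replicate 3 that difference was -0.04.

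**Figure D3:**
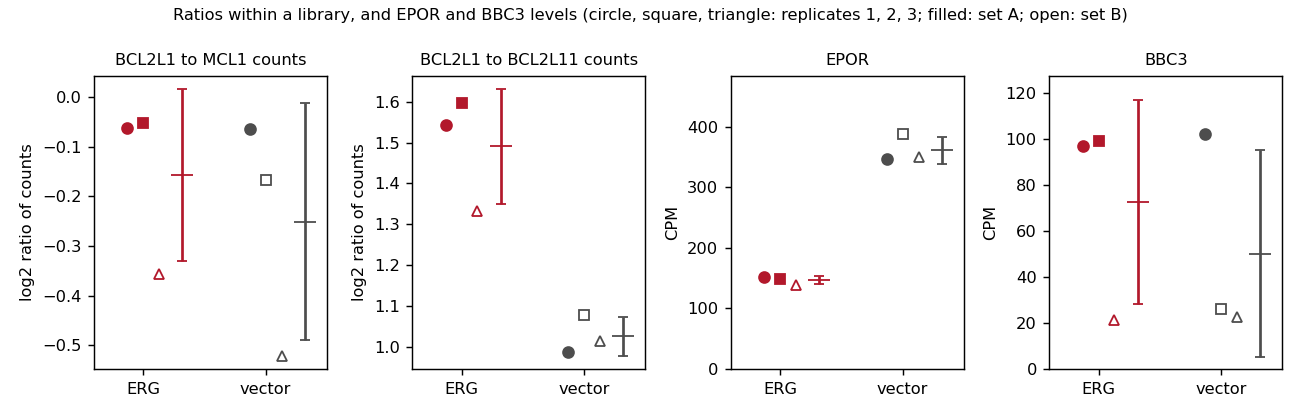
Log2 ratios of counts within each library (left pair of panels) and levels of EPOR and BBC3 in CPM (right pair), for 3 ERG and 3 vector libraries, with mean ± SD (n = 3), filled symbols for library set A and open symbols for set B. The BCL2L1 to BCL2L11 ratio (1.33 to 1.60 against 0.99 to 1.08) and EPOR (139 to 152 against 348 to 388 CPM) separate ERG from vector, while BBC3 separates the library sets. The separation of the ratio follows from those of its genes, which go in opposite directions.

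The other genes of the family were read from a list of 20, of which 14 were tested. EdgeR called 0 of the 14 (2.2% of all genes), with 1 at an unadjusted p under 0.05 (15.9% of all genes), and DESeq2 and limma called 0 (7.09% and 2.3% of all genes). The same shares of all genes apply to the lists that follow. Their median log2 fold change was 0.20. The 2 with the highest level were BCLAF1, a nuclear protein that binds BCL2, and BNIP3L (NIX), which clears mitochondria from maturing red cells. BCLAF1 was at 161 ± 43.7 CPM with ERG and 179 ± 52.2 CPM with vector (log2 fold change -0.15, edgeR adjusted p = 0.814). BNIP3L was at 156 ± 4.57 CPM with ERG and 159 ± 18.7 CPM with vector (log2 fold change -0.03, 95% interval -0.35 to 0.28, edgeR adjusted p = 0.923). The gene with an unadjusted p under 0.05 was BIK, a BH3-only protein, named after its values were seen. It was at 3.28, 3.22 and 3.53 CPM with ERG, against 6.07, 6.32 and 4.21 CPM with vector (log2 fold change -0.73, edgeR adjusted p = 0.247). BCL2L15, below the filter, was at 0.860, 0.754 and 0.543 CPM in the ERG replicates, against 2.38, 1.52 and 0.391 CPM in the vector replicates. BCL2A1, BCL2L10, BOK, HRK and BCL2L14 had no row in the deposited count table.

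In these other family genes the library sets separated more often than ERG and vector did. In 12 of the 14 the 3 libraries of set A were all above or all below the 3 of set B, against 43.0% of all tested genes and 2 of the 7 genes above. The sets had been drawn from all genes of these libraries, these included, so the counts are a description. The clearest cases, named after their values were seen, were the BH3-only genes BBC3 (PUMA) and PMAIP1 (NOXA), which p53 is known to activate. BBC3 was at 96.9, 99.4 and 21.3 CPM in ERG replicates 1, 2 and 3, against 102, 26.0 and 22.4 CPM in vector replicates 1, 2 and 3. Set A thus averaged 4.29-fold the level of set B, whereas the ERG difference within each set was -0.06 and -0.18 in log2 CPM. PMAIP1 was at 34.8, 33.3 and 12.9 CPM with ERG, against 32.8, 12.3 and 10.5 CPM with vector, a 2.83-fold difference between the sets. BCL2, the survival gene that names the family, was at 71.2, 69.2 and 35.3 CPM with ERG, against 60.5, 25.6 and 33.0 CPM with vector. Its set A libraries were again all above its set B libraries, and its log2 fold change with ERG was 0.56 (95% interval -0.31 to 1.44, edgeR adjusted p = 0.511). Without vector replicate 1 it was 1.00 and without vector replicate 2 it was 0.33, and with the set term 0.24, none past the threshold (edgeR adjusted p = 0.148, 0.804 and 0.203). The effector BAX, at 70.7, 71.2 and 94.6 CPM with ERG against 85.4, 88.5 and 90.3 CPM with vector, was lower in set A (log2 fold change with ERG -0.16, edgeR adjusted p = 0.639).

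Downstream of the family, and at the level of its protein partners, edgeR called 0 genes as well. Together with the other family genes, the 5 lists of apoptosis genes had 53 tested members, of which edgeR and limma called 0 and DESeq2 called 3. With the set term 4 passed, CASP10 and the 3 that DESeq2 called, against 13.2% of all genes. An unadjusted edgeR p under 0.05 was found for 7 of the 53, 13.2%, against 15.9% of all tested genes. Their median log2 fold change was 0.01. The 3 that DESeq2 called belong to the apoptosome and caspase list and are named after their values were seen. APAF1, the scaffold on which cytochrome c assembles the apoptosome, was at 24.4, 23.9 and 18.3 CPM with ERG, against 15.6, 10.7 and 13.2 CPM with vector (log2 fold change 0.75, edgeR adjusted p = 0.125, DESeq2 adjusted p = 0.0353). CASP6, an executioner caspase, was at 11.9, 13.8 and 15.4 CPM with ERG, against 21.8, 20.6 and 26.1 CPM with vector (log2 fold change -0.74, edgeR adjusted p = 0.0935, DESeq2 adjusted p = 0.00855). ENDOG, a mitochondrial nuclease, was at 9.46, 8.50 and 13.6 CPM with ERG, against 16.0, 19.0 and 19.4 CPM with vector (log2 fold change -0.78, edgeR adjusted p = 0.143, DESeq2 adjusted p = 0.0315). In all 3 genes the ERG and vector libraries did not overlap, which was also so in 21.9% of all tested genes. Because the 3 were picked by their calls, this is no separate support for them. DESeq2 called 7.09% of all genes, so 3 of 53 is near that background. All 3 came from the 13 tested genes of the apoptosome and caspase list, a list singled out after its values were seen. In it 4 genes, 30.8%, had an unadjusted edgeR p under 0.05, against 15.9% of all tested genes.

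The most abundant genes named from those lists had log2 fold changes between -0.36 and 0.32. CYCS, cytochrome c itself, was at 61.9, 62.9 and 118 CPM with ERG, against 69.5, 117 and 126 CPM with vector, another gene that separates the library sets (log2 fold change -0.36, edgeR adjusted p = 0.617). Among 5 inhibitors of apoptosis tested (edgeR, DESeq2 and limma 0 called, 1 at an unadjusted p under 0.05), BIRC5 (survivin) and BIRC6 had log2 fold changes of -0.04 and 0.19 (edgeR adjusted p = 0.935 and 0.543). Among 8 death receptor genes (0 called by any of the 3 tools, 0 at an unadjusted p under 0.05), the receptor TNFRSF1A and the caspase-8 inhibitor CFLAR had 0.11 and 0.32 (0.822 and 0.518). Among 13 partners and regulators of the proteins (0 called by any of the 3 tools, 1 at an unadjusted p under 0.05), the 14-3-3 genes YWHAZ and YWHAE, whose products hold phosphorylated BAD in the cytosol, had -0.14 and 0.09 (0.75 and 0.822).

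**Figure D4:**
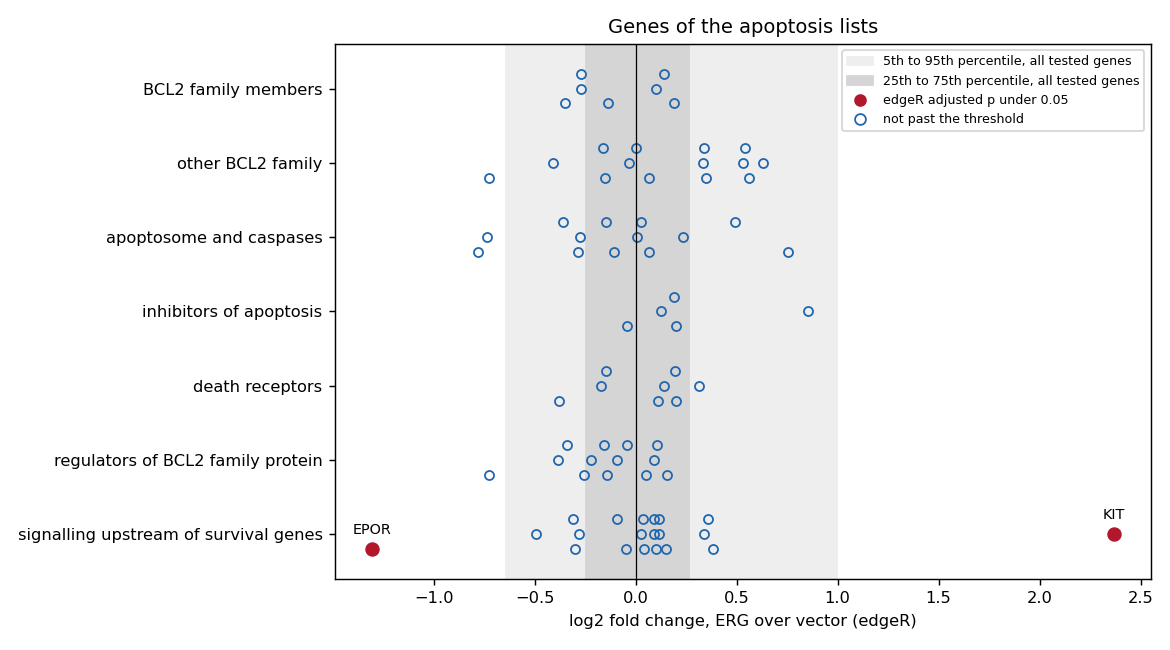
Log2 fold change of ERG over vector (horizontal axis, edgeR) for each tested gene of the 7 BCL2 family genes and of 6 other lists, 1 point a gene, on grey bands for the 5th to 95th (-0.64 to 1.00) and 25th to 75th (-0.24 to 0.27) percentiles of all tested genes. EPOR (-1.30) and KIT (2.37) are the points past the threshold, and all 7 family genes lie inside the wider band.

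Of 20 receptors, kinases and factors known to act on these survival genes, 1 rose and 1 fell, against 2.2% of all genes called. EPOR, the erythropoietin receptor, was at 152, 148 and 139 CPM in ERG replicates 1, 2 and 3, against 348, 388 and 350 CPM in vector replicates 1, 2 and 3. No ERG library came near a vector library, and the fall was 2.47-fold (log2 fold change -1.30, SE 0.13, 95% interval -1.60 to -1.0, edgeR adjusted p = 0.01). This interval does not overlap that of BCL2L1 (-0.09 to 0.47), although the difference between the 2 genes was not itself tested. KIT, the stem cell factor receptor, was at 16.5, 20.2 and 16.3 CPM with ERG, against 4.84, 3.96 and 1.37 CPM with vector (log2 fold change 2.37, SE 0.41, edgeR adjusted p = 0.0341). Both calls depend on which libraries are kept: leaving out either of ERG replicates 1 and 2, or vector replicate 2, gave an edgeR adjusted p of 0.0777, 0.0831 and 0.0538 for EPOR and of 0.133, 0.158 and 0.131 for KIT. Both held without ERG replicate 3 (0.0159 and 0.0478), vector replicate 1 (0.0116 and 0.0313) or vector replicate 3 (0.0393 for each). The remaining 18 did not pass in that fit, among them genes of the route from EPOR to BCL2L1, named after their values were seen. JAK2 was at 171, 165 and 117 CPM with ERG, against 261, 205 and 170 CPM with vector (log2 fold change -0.49, edgeR adjusted p = 0.321). With the set term, which called 13.2% of all genes, 5 of the 20 passed: KIT as higher, and EPOR, JAK2, GATA1 and CISH as lower. JAK2 was then at -0.66 (edgeR adjusted p = 0.00214), and at -0.67 (0.0117) with ERG replicates 1 and 2 also summed, a fit that called 7.05% of all genes. GATA1, the erythroid master factor, was at -0.39 and -0.37 in those fits (0.0246 and 0.118), and CISH, a STAT5 target that dampens cytokine signalling, at -0.53 and -0.51 (0.008 and 0.0418). STAT5A was at 477 ± 29 CPM with ERG and 441 ± 19.1 CPM with vector, a log2 fold change of 0.11 (95% interval -0.20 to 0.43, edgeR adjusted p = 0.707). FOXO3, which activates BCL2L11, was at 138, 146 and 119 CPM with ERG, against 111, 102 and 106 CPM with vector (log2 fold change 0.34, edgeR adjusted p = 0.264).

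The genes whose pattern over the 6 libraries was closest to that of BCL2L1 were RBM48, DNMT3A and ULK3. Their root mean square differences from BCL2L1, in log2 CPM centred on each gene's mean, were 0.02, 0.03 and 0.03, among 9808 genes compared. All 3 had small positive values (log2 fold changes 0.16, 0.19 and 0.20), none past the threshold (edgeR adjusted p = 0.617, 0.504 and 0.461). Because the 3 were picked by nearness to BCL2L1 over these same libraries, values close to its own had to follow. MCL1 was the nearest of the other 6 family genes, at 0.18, but ranked only 2077 among the genes compared. BID was the farthest, at 0.37 (rank 7043).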

How the data were processed

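Per the labels' protocols, polyadenylated RNA was fragmented and primed with random hexamers. Per the submitters' processing notes hg38 was the build and edgeR 3.32.1 a tool used; aligner, counter, annotation and strandedness are not given in the sources used here. The deposited table holds whole-number read counts per gene, although its name speaks of CPM. Every gene had at least 1.01 CPM in its second-highest library, so low genes had been removed before deposit. Columns headed NC were taken as the vector samples, the one group besides ERG, and 0 columns of values were left unused.

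Genes with at least 1 CPM in 3 libraries (14203, leaving out 618) were tested with edgeR 4.0.16 in R 4.3.3 (TMM, quasi-likelihood test, two-sided, Benjamini-Hochberg over all tested genes, threshold 0.05), checked on simulated data. The SE is the size of the log2 fold change divided by the square root of F. CPM are TMM-normalised, given as mean ± SD. Differences within library sets use log2 CPM with a prior count of 2. DESeq2 1.42.0, limma 3.58.1, other scalings and filters, a set term, a replicate block, and fits leaving out each library were the alternatives. The 7 genes had 197 to 3846 counts per library, so that counting error alone is 7.12% to 1.61%. Positions and exon lengths come from GENCODE release 29. The gene models used for counting are not known and may differ from these. Levels per kilobase and shares of overlapping bases are therefore approximate.

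The genes, lists and library sets were chosen with earlier results of these data known. From each list up to 6 genes past the threshold are named, or else the 2 with the highest mean CPM, and for BCL2L1 the 3 closest patterns among protein-coding genes of at least 5 CPM. Other genes are said to be named after their values were seen. A few list genes are counted but not reported here by name.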

Additional observations from a re-analysis of the deposited data

How the results depend on the processing

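None of the 7 genes passed in any of the 16 alternatives run, and of their signs only that of BCL2L2 turned, to -0.011 with the library set term. The number of genes called was 313 and became 1006 with DESeq2, 905 with a replicate block, 1869 with the set term, 1001 with the set term and ERG replicates 1 and 2 summed (added after seeing the data), and 0 with those summed and no set term (1277 at an unadjusted p under 0.05). Leaving out 1 library gave 0 to 441. The BCL2L1 to MCL1 difference ran between -0.041 and 0.193 in leave-one-out fits, and BCL2L1 to BCL2L11 between 0.412 and 0.545. The shared replicate numbers do not pair the libraries (correlations of deviations 0.628, -0.285 and 0.589, and ERG replicate 2 lay closest to vector replicate 1). With the block no called gene named here was lost, and CASP6 alone was gained among the apoptosis genes (edgeR adjusted p = 0.0429). Within replicate numbers both ratios had an exact permutation p of 0.25, the smallest that 3 pairs allow. With the set term APAF1, CASP6, ENDOG and CASP10 had adjusted p of 0.018, 0.0176, 0.0206 and 0.0302, and with ERG replicates 1 and 2 summed as well 0.0712, 0.0564, 0.0747 and 0.101. The causes of these shifts were not tested.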

Other observations

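Several other genes around the mitochondrion and the 14-3-3 proteins divided by library set more plainly than by ERG, all named after their values were seen. In the list of protein partners and regulators 8 of 13 tested genes had all set A libraries below all set B libraries and 0 had them above, beside 3212 and 2900 of all 14203 tested genes. BAG3, a co-chaperone, was at 18.6, 15.8 and 41.1 CPM in ERG replicates 1, 2 and 3, against 23.9, 47.5 and 53.4 CPM in vector replicates 1, 2 and 3. YWHAZ was at 546, 545 and 710 CPM with ERG, against 538, 768 and 681 CPM with vector. The sign was mostly the reverse for the genes upstream of the survival genes, of which 9 of 20 were higher in every library of set A and 1 was lower, in all 50.0%, near the 43.0% of all tested genes. CISH was at 104, 105 and 66.5 CPM with ERG, against 171, 84.4 and 84.5 CPM with vector, and its log2 fold change with ERG was -0.31 (edgeR adjusted p = 0.671). CISH was also lower with ERG within each set, by -0.72 and -0.34 in log2 CPM, and passed as lower with the set term (edgeR adjusted p = 0.008). Erythroid markers did not divide in this way, with 0 of 10 separating the sets. These are descriptions of 6 libraries whose division was drawn from the same data, and what the sets stand for was not tested.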
